A study of Mus musculus with 12 samples.

Results

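The collagen genes of the mouse were followed in RNA-seq libraries of cortex near an infarct. The members were the genes of the count table with a symbol made of Col, a number, the letter a and a number, and 44 of 25238 genes met this rule. The table holds 12 libraries, 4 in each of the groups Veh, ISP and control. The labels give each library its own number, and each was taken as 1 mouse. Veh mice received 5% DMSO in saline and ISP mice received intracellular sigma peptide, a membrane-permeable peptide that binds the proteoglycan receptor PTPσ, at 1 μg/g/day. Both groups shared a transient occlusion of the middle cerebral artery for 45 min at 10 to 12 weeks of age, daily treatment from day 1 post-stroke, and collection at day 14 by micro-punches of 1 mm diameter. The stroke mice of the study were male C57BL/6J or Nestin-creER-Ai9, a line with inducible tdTomato in nestin-positive neural stem cells and their progeny, and the sources used here do not state which of them gave these libraries. The results text of the study calls the comparison treatment a scrambled peptide, while its methods and the labels say vehicle. For the libraries labelled control the labels also give peri-infarct cortex, no surgery, treatment or day is stated for them, and they are reported under that label only.

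Collagens are trimers of alpha chains wound into a triple helix, each chain coded by its own gene. Fibrillar collagens form the cables of connective tissue, type IV collagen forms the network of basement membranes, and other types sit on fibrils, span the plasma membrane or build beaded filaments and short networks. In the healthy brain most collagen lies in the basement membrane of vessels, fibrillar collagen is made mainly by fibroblasts of the meninges and of the vessel wall, and some neurons and glia express minor types. After stroke, fibroblasts and basement membranes take part in the scar at the border of the infarct.

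Total counts were 17442711 to 24706638 per library with Veh, 19325979 to 28685864 with ISP and 21322702 to 29845629 for control. Reads of collagen genes made up 0.0328% (Veh 2) to 0.0600% (Veh 10) of a library. Neuron markers (8 genes, among them Snap25, Camk2a and Neurod6) summed to 9641 to 12920 CPM (read counts scaled to library size with TMM factors), and all 8 were detected in every library. The libraries differed in markers of cells that make collagen. Choroid plexus and ependyma markers (6 genes) summed to 1676 CPM in Veh 6 and 1146 CPM in ISP 18, against 0.144 to 2.25 CPM in the other 10 libraries, and Ttr, the transthyretin gene that defines choroid plexus, was at 1537 and 1047 CPM there and at 0 to 1.07 CPM elsewhere. Veh 10 held the highest level of 10 of 10 fibroblast markers, with a sum of 236 CPM against 34.0 to 120.8 CPM in the other 11 libraries. Macrophage markers (7 genes) summed to 58.5 CPM in Veh 10, 136.9 CPM in ISP 14 and 108.2 CPM in ISP 18 and to 4.38 to 16.3 CPM in the other 9. Most of the 3 high sums was Lyz2 (35.1, 128.0 and 100.1 CPM). Of the 7 markers, 3 (Ms4a7, Lyz2 and Ccr2) were higher in each of these libraries than in all of the other 9. Microglia markers (8 genes) summed to 1327 CPM in ISP 14 and 1226 CPM in ISP 18, against 292 to 642 CPM in the other 10 libraries. Reactive astrocyte markers (8 genes) summed to 1729 and 2918 CPM in ISP 14 and ISP 18, against 64.6 to 763 CPM in the other 10. Endothelial markers (264 to 347 CPM) and markers of pericytes and smooth muscle (234 to 352 CPM) varied less, with Veh 10 highest in both. In such tissue a lower level can mean fewer cells of a type or less RNA per cell, and these cannot be told apart. Fits without some of Veh 6, Veh 10, ISP 14 and ISP 18 are given beside the results that these libraries carry most.

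Per kilobase of exon, the collagen genes spanned from 15.2 CPM per kb for Col6a1, a chain of the beaded filaments, to 0.0187 CPM per kb for Col6a6 of the same type (mean of 12 libraries). Below Col6a1 came the vascular basement membrane chains Col4a2 (10.8 CPM per kb) and Col4a1 (5.74), then Col19a1 (3.55), a fibril-associated collagen made by some interneurons. Col6a1, Col4a2 and Col4a1 kept the first 3 ranks in each group. Col6a1 and Col4a2 were not separated beyond their spread, at 13.7 ± 5.00 and 11.5 ± 0.576 CPM per kb in control (SD, n = 4). Col19a1, at 4.50 ± 0.403 CPM per kb in control, was above Col25a1 (2.82 ± 0.178), a transmembrane collagen of neurons, and Col11a2 (2.42 ± 0.105). Col1a1 (0.528 ± 0.0761), Col1a2 (0.424 ± 0.0601) and Col3a1 (0.0891 ± 0.0280), the chains of the fibrils of scars, ranked 19th, 21st and 33rd of 44 in control, 8th, 12th and 22nd with Veh and 14th, 19th and 25th with ISP. The Veh means of these 3 genes rest on Veh 10, as for Col1a1 with a Veh mean of 16.7 CPM and a median of 5.46 CPM.

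**Figure D1:**
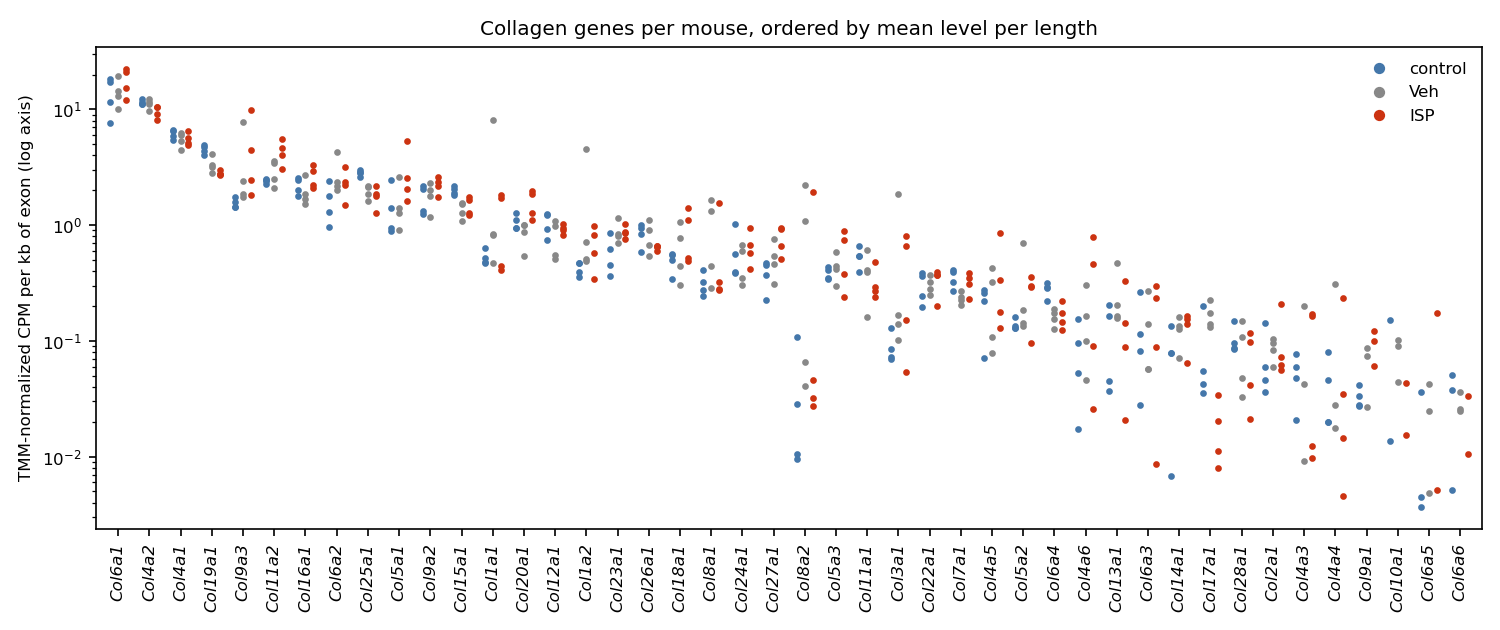
TMM-normalized CPM per kb of exon (log axis) of the 44 collagen genes, ordered by their mean over all libraries, with 1 point per mouse and colours for control, Veh and ISP (values of 0 are not drawn). Col6a1, Col4a2 and Col4a1 lead in every group. Veh 10 stands far above the rest for Col1a1, Col1a2 and Col3a1, and Veh 6, ISP 18 and Veh 10 do so for Col8a2.

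Among fibrillar collagens, Col1a1 and Col1a2 (both chains of type I) and Col3a1 (type III) were high in 1 Veh mouse. Col1a1 (chr11:94936224-94953042, GRCm38) was at 3.43, 3.06, 3.19 and 4.18 CPM in control 19, 21, 36 and 38, at 5.51, 5.41, 3.10 and 52.8 CPM in Veh 2, 6, 8 and 10, and at 2.67, 11.2, 2.89 and 11.9 CPM in ISP 12, 14, 16 and 18. Col1a2 (chr6:4504814-4541544) was, in the same order, at 5.89, 5.91, 4.88 and 4.41 CPM in control, 8.82, 6.09, 6.34 and 56.7 CPM with Veh, and 7.14, 10.2, 4.24 and 12.1 CPM with ISP. Col3a1 (chr1:45311538-45349706) was at 0.831, 1.28, 0.680 and 0.712 CPM in control, 1.66, 1.36, 1.00 and 18.4 CPM with Veh, and 1.49, 6.45, 0.529 and 7.94 CPM with ISP. In all 3 genes Veh 10 was highest, ISP 18 and ISP 14 came next, and the other ISP and Veh mice lay at or near the control range. Veh 10 was also the library with the highest fibroblast markers, and ISP 14 and ISP 18 summed to 60.4 and 120.8 CPM for them. Veh 6 summed to 103 CPM and Veh 2 to 58.9 CPM without such a rise of these collagens. Most of the sum in both Veh 6 and ISP 18 was 1 marker, Igf2. Igf2 was at 75.9 CPM in Veh 6, 77.4 in ISP 18 and 89.8 in Veh 10, and at 13.5 to 22.2 CPM elsewhere. The part of fibroblast content in these values was not tested. Per length, the 2 chains of type I stood at a ratio (Col1a1 over Col1a2) of 0.708 to 2.08 over the 12 libraries.

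With Veh against control, the fitted log2 fold changes were 2.30 (SE 0.74, adjusted p = 0.155, edgeR) for Col1a1, 1.90 (SE 0.62, adjusted p = 0.160) for Col1a2 and 2.69 (SE 0.84, adjusted p = 0.145) for Col3a1, none past the threshold of 0.1. Without Veh 10 they were 0.44, 0.42 and 0.61. For ISP against Veh the values were -1.21 (SE 0.84), -1.20 (SE 0.67) and -0.43 (SE 0.96), with adjusted p of 0.506, 0.407 and 0.856 (edgeR), and without Veh 10 they turned to 0.63, 0.26 and 1.63. Against control, Col3a1 rose with ISP by 2.24 on the log2 scale (SE 0.67, adjusted p = 0.0783, edgeR), with ISP 16 below all control mice and ISP 14 and ISP 18 far above them. With these mice left out Col3a1 stood at 0.21 (adjusted p = 0.933), and its call was also lost without any 1 control mouse (adjusted p = 0.101 to 0.184), with limma-voom (0.203) and with all 12 libraries in 1 fit (0.162). Col1a1, at 1.06 (SE 0.45, adjusted p = 0.185), and Col1a2, at 0.68 (SE 0.28, adjusted p = 0.176), did not pass, and stood at -0.31 and 0.11 with ISP 14 and ISP 18 left out.

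The promoters of Col1a2 and Col3a1 are shown because both genes were highest in the same 3 libraries, in the same order. The sequences are the 250 bases before the RefSeq start (GRCm38.p6), for Col1a2 chr6:4505368-4505617 and for Col3a1 chr1:45311288-45311537, both on the plus strand, and capitals mark matches on either strand of TATAAA (the TATA box), CCAAT (the CCAAT box) or GGGCGG (a GC box).
Col1a2: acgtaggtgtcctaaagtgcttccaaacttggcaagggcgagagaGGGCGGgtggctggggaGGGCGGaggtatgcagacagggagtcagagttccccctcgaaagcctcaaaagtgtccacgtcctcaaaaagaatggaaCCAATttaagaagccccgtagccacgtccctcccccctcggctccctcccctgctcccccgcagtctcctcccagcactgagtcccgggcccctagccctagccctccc
Col3a1: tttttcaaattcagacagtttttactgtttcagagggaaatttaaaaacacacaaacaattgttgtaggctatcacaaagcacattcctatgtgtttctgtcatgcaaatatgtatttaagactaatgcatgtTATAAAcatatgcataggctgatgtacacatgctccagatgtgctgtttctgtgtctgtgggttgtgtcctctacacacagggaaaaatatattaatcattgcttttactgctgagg
The Col1a2 window was 62.0% G and C, with CCAAT 109 bases and GGGCGG 188 and 205 bases before the start. This window lies inside the gene span given above, which begins at chr6:4504814, because the RefSeq start used lies inside that span. The Col3a1 window was 35.2% G and C, with TATAAA 117 bases before the start and no match of the other 2 motifs. Col5a2, a chain of type V that joins type I fibrils, lies next to Col3a1 (chr1:45374321-45503282), and was also highest in Veh 10, at 6.71 CPM, followed by ISP 18 at 3.45 and ISP 14 at 2.84, with control at 1.23 to 1.53 CPM.

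The other fibrillar genes followed other libraries. Col11a2 (chr17:34039437-34066685), a chain of type XI, was at 15.6, 16.9, 17.3 and 16.7 CPM in control, 14.4, 24.6, 17.3 and 23.8 CPM with Veh, and 27.8, 31.7, 20.8 and 37.8 CPM with ISP. All ISP mice lay above all control mice, and the log2 fold change was 0.84 (SE 0.16, adjusted p = 0.0223, edgeR). Against Veh it was 0.56 (SE 0.20, adjusted p = 0.277, edgeR), with ISP 16 inside the Veh range. Oligodendrocyte markers (8 genes) summed to 3373 to 5060 CPM in control, 2864 to 7150 CPM with Veh and 4797 to 11540 CPM with ISP, with Veh 6, ISP 12, ISP 14 and ISP 18 the 4 highest. These libraries were also 4 of the 4 highest for Col11a2, while Veh 10, lowest in these markers, had 23.8 CPM of Col11a2. The part of oligodendrocyte content was not tested. The value against control was 0.56 (adjusted p = 0.177) with ISP 14 and ISP 18 left out.

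Col27a1 (chr4:63214004-63334991), a short fibrillar collagen of cartilage, was at 2.94, 6.08, 5.90 and 4.84 CPM in control, 4.03, 9.82, 5.98 and 7.09 CPM with Veh, and 8.68, 12.0, 6.64 and 12.4 CPM with ISP. It rose with ISP against control by 1.02 on the log2 scale (SE 0.26, adjusted p = 0.0494, edgeR), with no overlap of the groups, and stood at 0.56 against Veh (SE 0.28, adjusted p = 0.359). Its call was lost without ISP 14, ISP 18, control 19 or control 38 (adjusted p = 0.144, 0.133, 0.104 and 0.128). Col5a1 (chr2:27886425-28039514), a chain of type V, was at 7.62, 21.0, 11.9 and 8.02 CPM in control, 7.76, 22.3, 12.0 and 10.8 CPM with Veh, and 17.4, 13.8, 21.8 and 45.04 CPM with ISP. The groups overlapped, and neither ISP against Veh (log2 fold change 0.89, SE 0.38, adjusted p = 0.309, edgeR) nor ISP against control (1.03, SE 0.38, adjusted p = 0.139) passed, and without ISP 18 the values were 0.41 and 0.54. ISP 18 and Veh 6, the libraries with choroid plexus markers, were its 2 highest. ISP 16, control 21 and ISP 12, without such markers, came next. With Veh 6, Veh 10, ISP 14 and ISP 18 all left out, a fit on 2 mice per group, Col5a1 had a log2 fold change of 0.98 for ISP against Veh (adjusted p = 0.0317, edgeR). In this fit deep-layer neuron markers (7 genes) summed to 195 and 205 CPM in Veh 2 and 8 and to 300 and 247 CPM in ISP 12 and 16. Upper-layer neuron markers (6 genes) summed to 772 and 742 CPM and to 426 and 605 CPM in the same mice. The part of cortical layer in Col5a1 was not tested. Of the remaining fibrillar genes Col11a1, the partner of Col11a2, was at 5.05 to 8.46 CPM in control and 3.03 to 6.12 CPM with ISP, and Col5a3, Col24a1 and Col2a1 had ranges that overlapped between all groups.

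**Figure D2:**
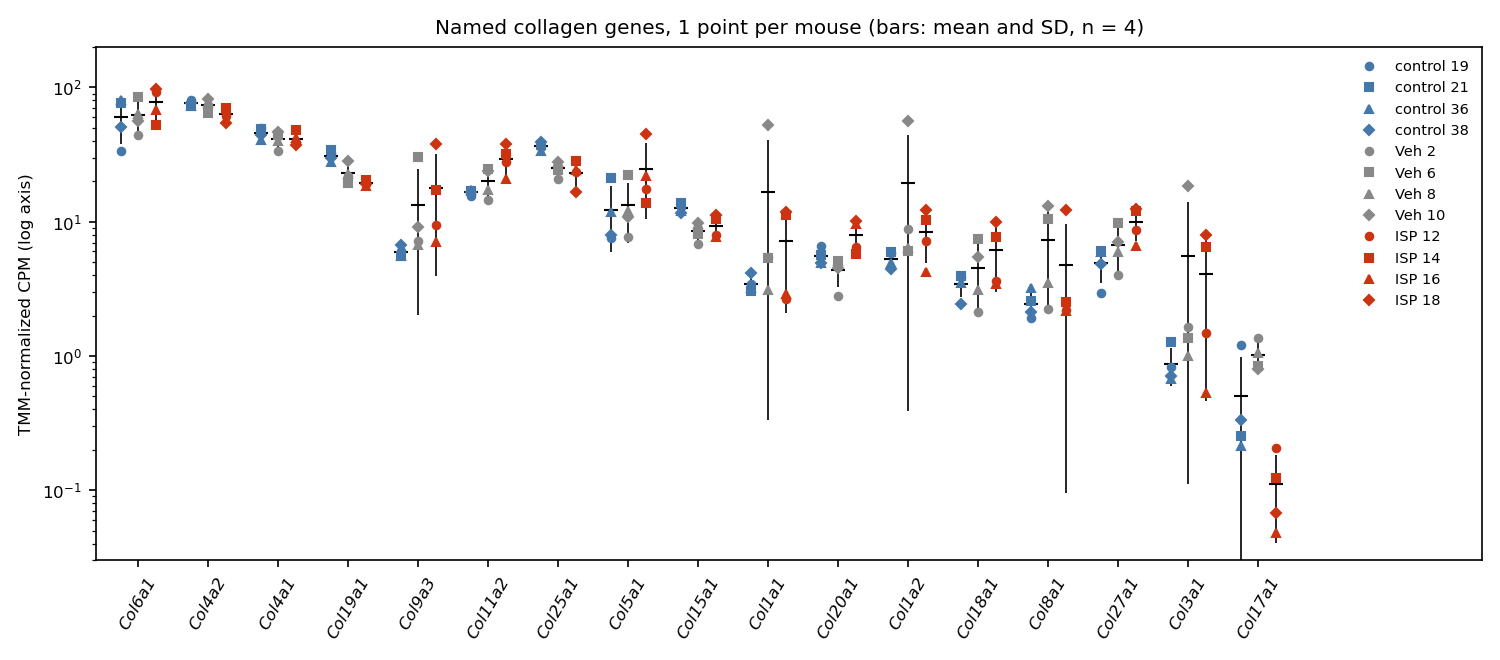
TMM-normalized CPM (log axis) of the 17 collagen genes described in full, with 1 symbol per mouse; horizontal marks are group means and bars are SDs (n = 4), cut short where mean minus SD falls below the axis or 0. Veh 10 stands alone for Col1a1, Col1a2 and Col3a1, Veh 6 and ISP 18 for Col9a3, and the control mice lie above the ISP mice for Col19a1 and Col25a1.

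The basement membrane pair differed little. Col4a1 (chr8:11198423-11312826) was at 49.9, 48.99, 40.3 and 44.1 CPM in control, 33.6, 44.6, 40.1 and 46.4 CPM with Veh, and 38.5, 48.5, 42.4 and 37.0 CPM with ISP. Col4a2 (chr8:11312805-11449287) was at 81.2, 73.1, 73.2 and 76.6 CPM in control, 73.9, 64.3, 77.1 and 82.1 CPM with Veh, and 61.0, 69.8, 68.8 and 54.0 CPM with ISP. Every ISP mouse lay below every control mouse for Col4a2, with a log2 fold change of -0.26 (SE 0.09, adjusted p = 0.126, edgeR), and it was called by DESeq2 (adjusted p = 0.0912). Against Veh the log2 fold change of Col4a2 was -0.23 (SE 0.10, adjusted p = 0.324) and that of Col4a1 0.015 (SE 0.12, adjusted p = 0.967). The genes start head to head on opposite strands and share 22 bases of exon, and their ratio per length (Col4a1 over Col4a2) stayed between 0.403 and 0.617. Endothelial markers were not called in any comparison, with a median log2 fold change of -0.21 for ISP against Veh.

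The minor chains of type IV, known from the kidney and other specialised basement membranes, were high in libraries that stood apart. Col4a3 (chr1:82586921-82722059) and Col4a4 (chr1:82448423-82586849) had 50 and 82 counts in Veh 6 and 50 and 74 in ISP 18, which for Col4a4 was 3.29 and 2.50 CPM against at most 0.854 CPM in the other libraries. ISP 12 came close for Col4a3 alone, with 32 counts, 1.64 CPM against 1.69 CPM in ISP 18. Col4a5 was also highest in ISP 18 (5.71 CPM) and Veh 6 (2.85), whereas its neighbour Col4a6 was highest in ISP 18 (6.32), ISP 14 (3.66) and Veh 10 (2.44) and at 0.802 CPM in Veh 6. Col4a3 and Col4a4 start 71 bases apart on opposite strands, and the bases between both starts (chr1:82586850-82586920, GRCm38.p6, plus strand, RefSeq) are shown because the genes share them as promoter.
Col4a4 and Col4a3: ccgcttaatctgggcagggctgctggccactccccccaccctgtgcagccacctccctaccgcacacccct
None of the 3 motifs was found in this stretch on either strand.

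Col8a1, Col8a2 and Col9a3 were also high in Veh 6 and ISP 18, and both Col8 genes in Veh 10 too. Col8a1 (chr16:57624258-57754737), of the short chain network under endothelia, was at 1.91, 2.55, 3.19 and 2.14 CPM in control, 2.25, 10.5, 3.47 and 13.1 CPM with Veh, and 2.21, 2.51, 2.17 and 12.1 CPM with ISP. Its partner Col8a2 had 249, 255 and 104 counts in Veh 6, ISP 18 and Veh 10 (9.98, 8.62 and 4.88 CPM) and 1 to 14 counts in each other library. Both genes thus stood high in 3 libraries and at or near the control range in the rest, and Col8a2 did not pass the count filter. The log2 fold change of Col8a1 was 1.61 for Veh against control (SE 0.46, adjusted p = 0.122, edgeR; DESeq2 adjusted p = 0.0161), which became 0.23 with Veh 6 and Veh 10 left out. It was -0.61 for ISP against Veh (SE 0.66, adjusted p = 0.682; -0.18 without Veh 10 and -1.67 without ISP 18) and 0.98 for ISP against control (SE 0.53, adjusted p = 0.304), the last turning to -0.088 without ISP 18. Col10a1, the third member, had 0 to 10 counts.

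Col9a3 (chr2:180597790-180622189), a fibril-associated chain of type IX, was at 6.06, 5.57, 5.56 and 6.69 CPM in control, 7.16, 30.1, 6.71 and 9.20 CPM with Veh, and 9.51, 17.3, 7.07 and 37.8 CPM with ISP. All ISP and all Veh mice were above all control mice. The rise against control was 1.60 with ISP on the log2 scale (SE 0.42, adjusted p = 0.0517, edgeR), and with Veh the value was 1.18 (SE 0.41, adjusted p = 0.175), which became 0.38 without Veh 6. The call with ISP was lost without control 19, control 36, control 38 or ISP 14 (adjusted p = 0.116 to 0.12). Without ISP 18 the log2 fold change against control was 0.92 (adjusted p = 0.107), and without ISP 14 and ISP 18 it was 0.48 (adjusted p = 0.443). For ISP against Veh it was 0.43 (SE 0.57, adjusted p = 0.743). Col9a3 shares 234 of its 3853 bases of exon with Tcfl5 on the opposite strand, and reads within this shared stretch cannot be told apart. Over all collagen genes, 7 of 44 (15.9%) had Veh 6 and ISP 18 above all other libraries, namely Col4a3, Col4a4, Col4a5, Col5a1, Col6a5, Col8a2 and Col9a3, against 681 of 20293 genes with counts (3.36%). The part of choroid plexus or ependyma tissue in these values was not tested.

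**Figure D3:**
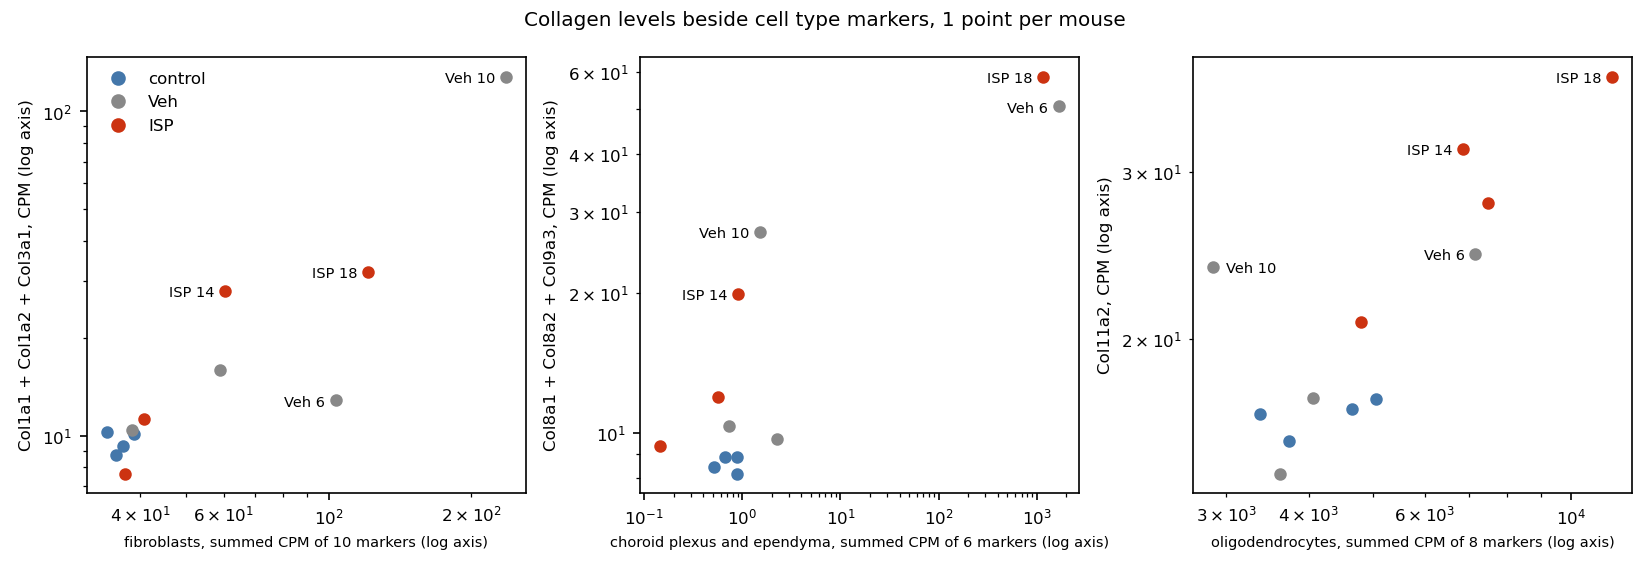
Summed CPM of collagen genes against summed CPM of cell type markers, both on log axes, with 1 point per mouse and colours for the groups. Veh 10 is highest in fibroblast markers and in type I and III collagen, Veh 6 and ISP 18 stand apart in choroid plexus markers and in Col8a1, Col8a2 and Col9a3, and Col11a2 is highest in ISP 18 with 37.8 CPM.

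Col19a1 and Col25a1 were lower with ISP than in control, and Col25a1 also with Veh. Col19a1 (chr1:24261890-24587472) was at 32.3, 34.1, 27.7 and 29.9 CPM in control, 21.8, 19.5, 22.8 and 28.3 CPM with Veh, and 19.1, 20.5, 18.5 and 19.1 CPM with ISP. Col25a1 (chr3:130131501-130599877), which is found in amyloid plaques and is needed for motor innervation of muscle, was at 36.2, 37.0, 33.6 and 39.1 CPM in control, 20.9, 24.1, 27.8 and 28.0 CPM with Veh, and 23.3, 28.4, 24.3 and 16.5 CPM with ISP. Control mice did not overlap with ISP mice in either gene, and with Veh mice only Veh 10 exceeded the lowest control mouse for Col19a1. Col19a1 fell by 0.68 on the log2 scale with ISP against control (SE 0.10, adjusted p = 0.0186, edgeR), and with Veh the value was -0.41 (SE 0.12, adjusted p = 0.124; DESeq2 adjusted p = 0.0433). Col25a1 fell by 0.66 with ISP (SE 0.14, adjusted p = 0.0290) and by 0.52 with Veh (SE 0.11, adjusted p = 0.0732). The call with Veh was lost without control 21, control 36, control 38 or Veh 2 (adjusted p = 0.131 to 0.188). Neither differed past the threshold between ISP and Veh, at -0.26 (SE 0.12, adjusted p = 0.338) for Col19a1 and -0.13 (SE 0.16, adjusted p = 0.728) for Col25a1. Both calls for ISP against control held with ISP 14 and ISP 18 left out (adjusted p = 0.0543 and 0.0649). Neuron markers summed to 11890 to 12440 CPM in control, 11210 to 12920 CPM with Veh and 9641 to 11880 CPM with ISP, and interneuron markers (6 genes) to 852 to 925, 804 to 941 and 785 to 894 CPM. Against control, 1 of 8 neuron markers was called with Veh, Neurod6, which fell by 0.33 on the log2 scale (adjusted p = 0.0945, edgeR). Of the 8, 4 had a log2 fold change above 0. With ISP, 1 of 6 interneuron markers was called, Sst, of somatostatin interneurons, which fell by 0.38 (adjusted p = 0.0848). Of the 6, 2 were above 0. The call of Neurod6 was lost with Veh 6 and Veh 10 left out (adjusted p = 0.274). That of Sst was lost with ISP 14 and ISP 18 left out (adjusted p = 0.443).

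The promoters of the 2 genes are shown because they were the collagens called lower with ISP (250 bases before the RefSeq start, GRCm38.p6, Col19a1 chr1:24587438-24587687 on the minus strand and Col25a1 chr3:130180595-130180844 on the plus strand, capitals as above).
Col19a1: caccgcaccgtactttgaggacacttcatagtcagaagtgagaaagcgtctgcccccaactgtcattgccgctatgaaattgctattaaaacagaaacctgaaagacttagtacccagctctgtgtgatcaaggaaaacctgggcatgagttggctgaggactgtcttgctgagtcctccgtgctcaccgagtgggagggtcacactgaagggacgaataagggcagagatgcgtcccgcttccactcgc
Col25a1: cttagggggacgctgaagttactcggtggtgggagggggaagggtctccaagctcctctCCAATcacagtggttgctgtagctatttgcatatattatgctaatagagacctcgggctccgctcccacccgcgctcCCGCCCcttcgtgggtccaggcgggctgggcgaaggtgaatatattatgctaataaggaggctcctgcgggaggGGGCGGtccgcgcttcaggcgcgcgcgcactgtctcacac
The RefSeq start used for Col25a1 lies inside the gene span given above, chr3:130131501-130599877, so its window does too. The Col19a1 window held none of the 3 motifs. The Col25a1 window held CCAAT 191 bases and GGGCGG 40 bases before the start, and GGGCGG again on the other strand 114 bases before it. RefSeq promoters were matched for 35 of the 44 collagen genes, 38 windows in all, and GGGCGG was in 57.9% of these windows against 32.7% of 32851 promoters, CCAAT in 34.2% against 33.8%, and TATAAA in 13.2% against 12.4%.

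Col15a1 (chr4:47208161-47313167), a multiplexin of vessel basement membranes, was at 12.9, 13.8, 12.0 and 11.6 CPM in control, 6.87, 8.06, 9.58 and 9.81 CPM with Veh, and 8.02, 10.4, 7.75 and 11.2 CPM with ISP. All control mice lay above all others, while the log2 fold changes, -0.54 with Veh (SE 0.15, adjusted p = 0.106, edgeR; DESeq2 adjusted p = 0.0258) and -0.42 with ISP (SE 0.15, adjusted p = 0.134), missed the edgeR threshold. Col18a1 (chr10:77052178-77166548), the other multiplexin and the source of endostatin, was at 3.88, 3.95, 3.48 and 2.42 CPM in control, 2.13, 7.497, 3.10 and 5.49 CPM with Veh, and 3.65, 7.73, 3.42 and 9.97 CPM with ISP. It was highest in ISP 18, ISP 14, Veh 6 and Veh 10, the libraries that stood apart, and was not called (0.86 for ISP against control, SE 0.34, adjusted p = 0.165, and 0.045 with ISP 14 and ISP 18 left out). Col6a1 (chr10:76708792-76726168) was at 33.6, 76.0, 80.02 and 50.7 CPM in control, 44.3, 85.0, 63.5 and 56.7 CPM with Veh, and 93.0, 52.4, 67.7 and 98.1 CPM with ISP, and varied within groups more than between them (ISP against Veh 0.32, SE 0.22, adjusted p = 0.498). The 5 libraries with the highest Col6a1 (ISP 18, ISP 12, Veh 6, control 36 and control 21) were also the 5 with the highest deep-layer neuron markers, at 284 to 306 CPM against 144 to 247 CPM in the rest, and the part of cortical layer in this was not tested. Its partner Col6a2 followed Col6a1 less in Veh 10, where their ratio per length was lowest (3.02, against up to 10.3 in control 36). Of the other beaded filament genes, Col6a3 and Col6a4 were at 0.103 to 3.54 CPM and Col6a5 and Col6a6 had at most 49 counts.

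Col17a1 and Col20a1 were the tested collagens whose ISP and Veh mice did not overlap, and neither was called by edgeR. Col17a1 (chr19:47646344-47692094), a transmembrane collagen of epithelial hemidesmosomes, had 23, 21, 23 and 17 counts in Veh 2, 6, 8 and 10, 4, 3, 1 and 2 counts in ISP 12, 14, 16 and 18, and 35, 6, 5 and 7 counts in control 19, 21, 36 and 38. In CPM this was 1.01 ± 0.257 with Veh, 0.111 ± 0.0705 with ISP and 0.503 ± 0.475 in control (SD, n = 4). Every ISP mouse lay below every Veh mouse, at levels of few reads. The log2 fold change was -3.16 (SE 0.55, adjusted p = 0.261, edgeR; DESeq2 adjusted p = 0.0136). Col20a1 (chr2:180986535-181018363), a fibril-associated collagen, was at 2.78, 5.13, 5.11 and 4.51 CPM with Veh, 6.53, 5.71, 9.58 and 10.1 CPM with ISP, and 6.58, 5.70, 4.88 and 4.89 CPM in control. ISP mice were above Veh mice but overlapped with control, and the log2 fold change against Veh was 0.86 (SE 0.26, adjusted p = 0.263, edgeR; DESeq2 adjusted p = 0.0835).

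**Figure D4:**
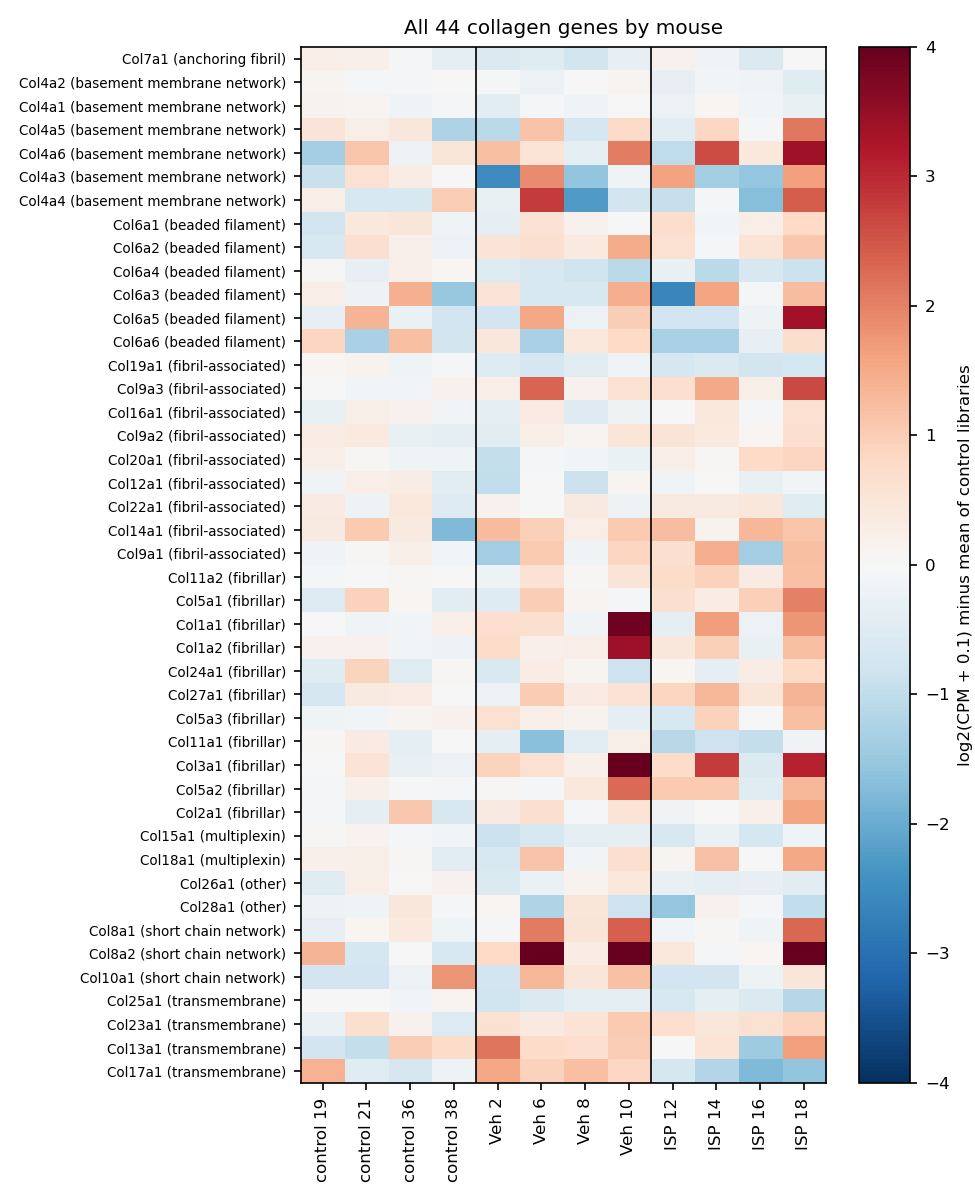
Level of each of the 44 collagen genes (rows, by subfamily) in each mouse (columns), as log2 of CPM plus 0.1 minus the mean of the 4 control libraries, with colours limited at 4 and -4. The darkest red cells lie in Veh 6, Veh 10 and ISP 18, and Col19a1, Col25a1 and Col15a1 are blue across all Veh and ISP mice.

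To ask what the peptide changed in stroke tissue, ISP was compared with Veh. Of 37 collagen genes that passed the count filter, edgeR called 0 (0.0% of all 15214 genes tested were called). At an unadjusted p under 0.05 there were 5, with Col11a2, Col20a1 and Col5a1 higher and Col17a1 and Col4a2 lower, 13.5% against 15.3% of all genes (7.87% higher and 7.47% lower). DESeq2 called 2 of 40, or 5.0% against 2.51% of all genes (1.15% higher and 1.35% lower), with Col20a1 higher and Col17a1 lower. Groups did not overlap for the same 2 genes (5.41%), against 6.77% of all genes (2.74% higher and 4.03% lower). The median log2 fold change was 0.12 for collagens and 0.02 for all genes, and without ISP 14 and ISP 18 the collagen median was -0.24.

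To set stroke tissue beside the libraries labelled control, Veh and ISP were each compared with them. The 2 comparisons share the control libraries. With Veh, 1 of 38 tested collagens was called, Col25a1, lower (2.63%, against 2.23% of 15126 genes, 1.03% higher and 1.2% lower). At an unadjusted p under 0.05 there were 13, 8 higher and 5 lower (34.2%, against 16.3% of all genes, 8.1% higher and 8.24% lower). DESeq2 called 5 of 40 (12.5%, against 6.46% of all genes, 2.83% higher and 3.63% lower), with Col8a1 and Col8a2 higher and Col15a1, Col19a1 and Col25a1 lower, and gave no adjusted p for Col1a1, Col1a2 and Col3a1. Veh and control mice did not overlap for 5 collagens (13.2%, against 9.98% of all genes, 4.11% higher and 5.86% lower), Col1a2 and Col9a3 higher and Col15a1, Col25a1 and Col6a4 lower. With ISP, 6 of 37 were called (16.2%, against 10.2% of 15232 genes, 6.74% higher and 3.42% lower), Col11a2, Col27a1, Col9a3 and Col3a1 higher and Col19a1 and Col25a1 lower. At an unadjusted p under 0.05 there were 18, 12 higher and 6 lower (48.6%, against 22.3% of all genes, 12.3% higher and 10.0% lower). DESeq2 called 10 of 40 (25%, against 13.7% of all genes, 8.61% higher and 5.09% lower), adding Col1a1 and Col4a6 higher and Col11a1 and Col4a2 lower. ISP and control mice did not overlap for 7 collagens (18.9%, against 12.1% of all genes, 7.0% higher and 5.07% lower). By subfamily the edgeR calls were 3 of 11 fibrillar genes higher, 1 of 8 tested fibril-associated genes higher and 1 lower, and 1 of 3 tested transmembrane genes lower, with 0 of 5 basement membrane genes and 0 of 4 beaded filament genes. The median was 0.17 for Veh and 0.51 for ISP, where the median of all genes was 0.02 and -0.01. With ISP 14 and ISP 18 left out, 2 collagens were called with ISP, Col19a1 and Col25a1, where calls over all genes fell from 1547 to 90 (0.581%), and the median was -0.14. With Veh 6 and Veh 10 left out, 0 collagens and 34 of all genes were called with Veh, and the collagen median was -0.16.

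**Figure D5:**
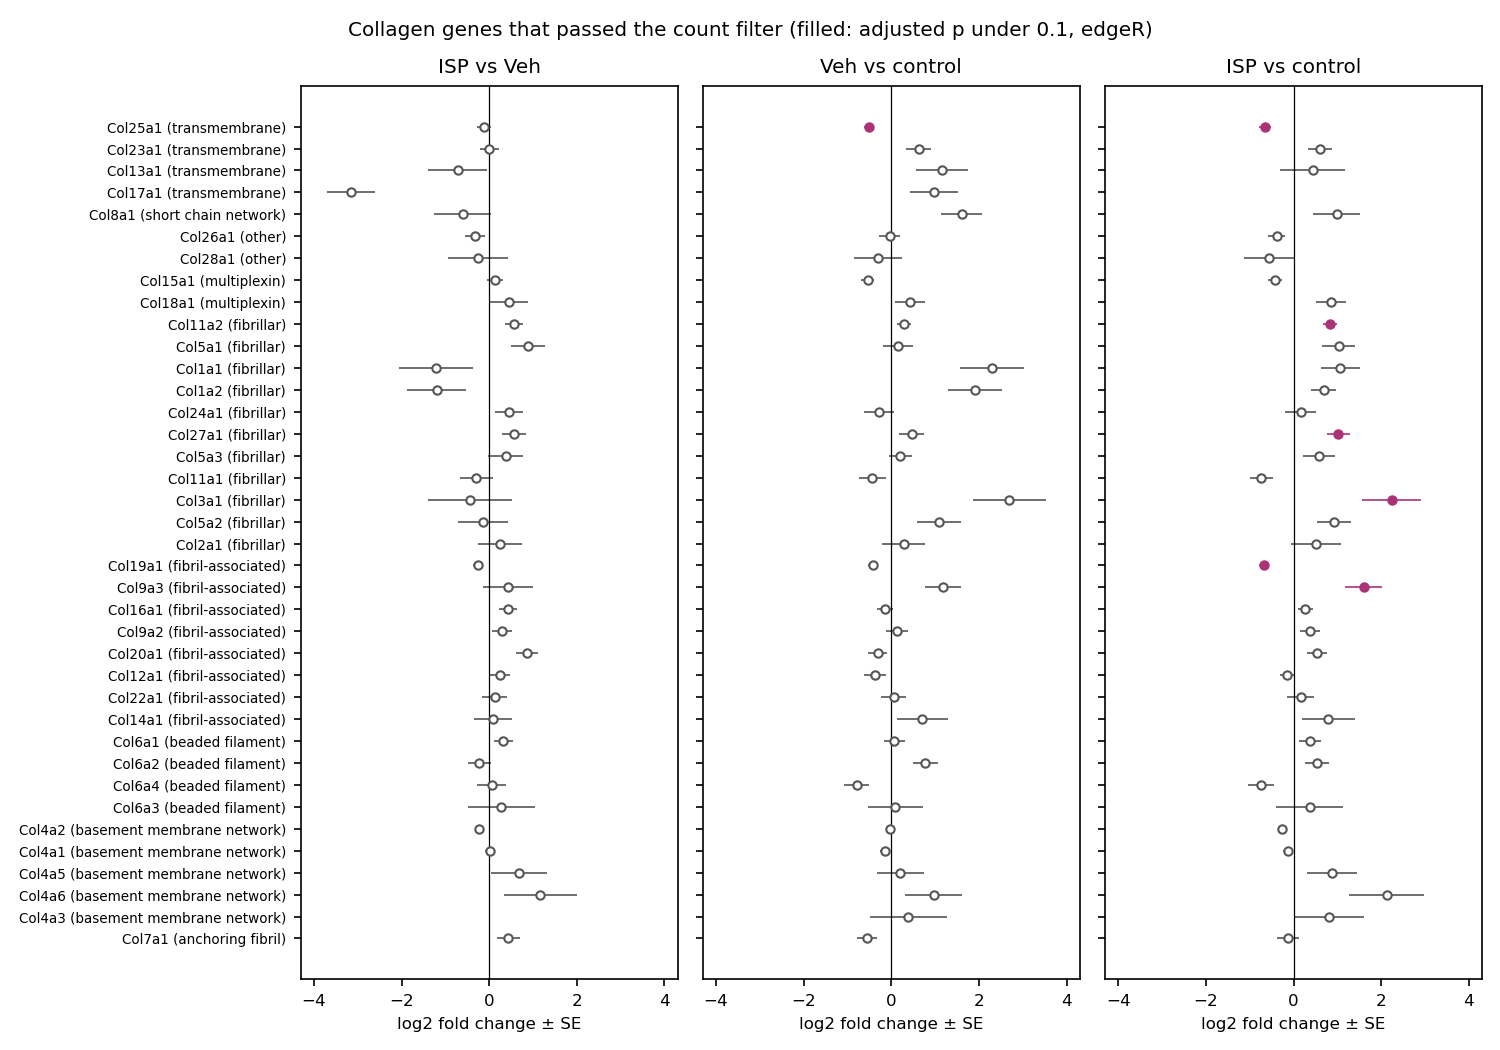
Fitted log2 fold changes with standard errors (edgeR) of the collagen genes that passed the count filter, for ISP against Veh, Veh against control and ISP against control; filled points have an adjusted p under 0.1. No gene is filled for ISP against Veh, Col25a1 is filled for Veh against control, and 6 genes are filled for ISP against control.

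Members not described above were low or did not pass. Among fibril-associated genes Col12a1, Col16a1, Col14a1, Col22a1 and Col9a2 had no call, with Col16a1 at 10.4 to 22.4 CPM and Col12a1 at 7.70 to 19.0 CPM over all mice, and Col9a1 had at most 15 counts. The transmembrane genes Col13a1 and Col23a1, the anchoring fibril gene Col7a1 (2.10 to 4.23 CPM), Col26a1 and Col28a1 had none either. In all, 14 of 44 members were highest in ISP 18 and 9 in Veh 10, where 15.4% and 6.74% of all 20293 genes with counts were.

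Genes that process, bind, cleave or induce collagen were compared in the same fits. For ISP against Veh edgeR called no gene at all, and the calls below are against control, to be read beside the 10.2% of all genes called with ISP and 2.23% with Veh. Of 15 modifying enzymes, 2 rose with ISP against control: Plod1, a lysyl hydroxylase, by 0.84 on the log2 scale (SE 0.18, adjusted p = 0.0298, edgeR) and P4hb, the beta subunit of prolyl hydroxylase, by 0.32. Of 3 genes of folding and export, the chaperone gene Fkbp10 rose in both comparisons, by 0.95 with ISP and 0.93 with Veh. Adamts2, which removes the amino-terminal propeptide, was 1 of 7 tested proteinases and enhancers called, by 1.09 with ISP. Of 5 lysyl oxidases, which cross-link collagen, 3 were tested and 0 were called. All 3 were higher at an unadjusted p under 0.05 with Veh and with ISP, where 8.1% and 12.3% of all genes were. The 2 comparisons share the control libraries. Among 9 tested collagen receptors, Adgrg1 (a type III collagen receptor of neural cells and microglia) rose by 0.65 with Veh and 0.63 with ISP, and with ISP also Itgb1, the common beta chain of the collagen integrins, by 0.63 and Lair1, an inhibitory receptor of leukocytes, by 1.51. Of 4 tested cleaving proteases, Mmp2 rose by 1.36 and Mmp14, which activates it, by 0.74 with ISP. Of 15 basement membrane partners, 1 was called with ISP, the proteoglycan gene Agrn, which fell by 0.26 (adjusted p = 0.0516). In the TGF-beta pathway, a main inducer of fibrillar collagen genes, 3 of 14 tested genes rose with ISP, Tgfbr2 by 1.20, Tgfb1 by 1.26 and Tgfbi by 1.83. With ISP 14 and ISP 18 left out, Adgrg1 was the 1 of these genes called with ISP (0.59, adjusted p = 0.0543), and with Veh 6 and Veh 10 left out Adgrg1 was called with Veh (0.68, adjusted p = 0.0903) and Fkbp10 was not (0.78, adjusted p = 0.15). With ISP against control, 7 of 8 microglia markers and 5 of 6 tested reactive astrocyte markers were called higher. So were 6 of 8 oligodendrocyte markers and 2 of 9 tested fibroblast markers, Islr and Dcn. Gfap was at 27.9 CPM in control, 306 CPM with Veh and 1121 CPM with ISP, on average. Its levels were 151, 308, 120 and 644 CPM in Veh 2, 6, 8 and 10. In ISP 12, 14, 16 and 18 they were 524, 1289, 290 and 2383 CPM. The part of these cells in the list values was not tested.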

How the data were processed

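RNA-seq was performed on poly(A) RNA and gave 12 libraries. The authors mapped reads to mm10 (HISAT2) and summed them over genes (HTSeq, default settings); no version is stated in what was used here. The table deposited by the authors holds raw counts for 25238 genes. The default of HTSeq is stranded and the kit described does not mark strand, so reads where genes on opposite strands overlap cannot be told apart. Collagen genes were matched to GENCODE M21 on GRCm38 for positions and exon length (44 of 44 matched). For each pair of groups, only its 8 libraries entered the fit (R 4.3.3; edgeR 4.0.16 with filterByExpr, TMM, glmQLFit and glmQLFTest), and p-values were adjusted by Benjamini-Hochberg over all tested genes and called under 0.1. Levels are CPM with TMM factors over 12 libraries. Fits were tested on simulated data. Alternatives used DESeq2 1.42.0, limma 3.58.1, other filters, DESeq2 size factors, an adjusted p of 0.05, a log2 fold change above 0.5 and libraries left out. The members, lists and tests were chosen with earlier results of these data known. Named in full were collagens called in any comparison, the 4 with the smallest p in each, and Col1a1, Col1a2, Col3a1, Col4a1, Col4a2, Col5a1, Col6a1 and Col18a1. From the other lists, up to 4 genes with the smallest p were named. Pairs of libraries within a group differed beyond sampling noise (chi-square per degree of freedom 11.1 to 50.9). Each library was taken as 1 mouse and 1 replicate, so p-values measure the spread between libraries. No batch was stated. Counting error limits genes of few reads.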

Additional observations from a re-analysis of the deposited data

Results flagged for a closer look

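For the 17 collagen genes described in full, 51 groups of 4 mice were examined. In 6 of them, 1 library lay far from the others by Dixon's test. This test takes the gap of that library to the nearest other mouse over the range of the group. For values with a normal spread, chance alone gives about 1 in 20. Here CPM were used without a log, and the groups are not independent because the genes share the same mice. Veh 10 stood far above the other Veh mice for Col1a1 (52.8 CPM against 3.10 to 5.51), Col1a2 (56.7 CPM against 6.09 to 8.82) and Col3a1 (18.4 CPM against 1.00 to 1.66), and it was also highest in all 10 fibroblast markers. Veh 6 stood above the other Veh mice for Col9a3 (30.1 CPM against 6.71 to 9.20), and ISP 18 above the other ISP mice for Col8a1 (12.1 CPM against 2.17 to 2.51). Both libraries held choroid plexus markers. Control 19 had 1.21 CPM of Col17a1, from 35 counts, where the other control mice had 0.212 to 0.332 CPM.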

How the results depend on the processing

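No paired analysis was possible because the groups share no replicate number. With DESeq2 the calls were 2 for ISP against Veh, 5 for Veh against control and 10 for ISP against control, where edgeR gave 0, 1 and 6. For Veh against control there were 4 calls with no filter, 0 with all 12 libraries in 1 fit and 0 at an adjusted p under 0.05. Leaving out 1 library at a time gave 0 to 1 collagen calls for ISP against Veh (1 without Veh 6, with 72 calls over all genes), 0 to 3 for Veh against control (0 without control 21, control 36, control 38 or Veh 2, with 0 to 84 calls over all genes, and 3 without Veh 6, with 402) and 3 to 12 for ISP against control (3 without control 19, control 38 or ISP 14, with 420 to 811 calls over all genes, and 12 without ISP 16, with 2283). The collagen median then ran from 0.02 to 0.28, from 0.0085 (without control 38) to 0.35 (without Veh 8) and from 0.24 (without ISP 18) to 0.61. Without ISP 14 and ISP 18 the median was -0.24 for ISP against Veh and -0.14 for ISP against control, with 2 calls in the latter. Leaving out Veh 6, Veh 10, ISP 14 and ISP 18, chosen after seeing the data, gave 2 calls for ISP against Veh, Col5a1 and Col6a1, of 265 over all genes (1.76%). Leaving out Veh 6 and Veh 10, also chosen after seeing the data, gave 0 calls and a median of -0.16 for Veh against control. The causes were not tested.

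Over the alternatives run, none of the 17 collagens described in full reversed its sign where the edgeR fit on all 8 libraries called it. Col1a1 was called by DESeq2 for ISP against control (adjusted p = 0.0964) and reversed in that comparison without ISP 14 and ISP 18. For ISP against Veh, Col3a1 was at 0.34 with limma-voom. With single libraries left out, the ranges were -0.0727 to 0.0732 for Col4a1, -1.57 to 0.63 for Col1a1, -1.50 to 0.26 for Col1a2, -0.97 to 1.63 for Col3a1, -0.24 to 0.0077 for Col25a1 and -0.24 to 1.23 for Col9a3. Without ISP 14 and ISP 18, Col15a1 was at -0.12, Col18a1 at -0.37, Col4a1 at -0.0252 and Col9a3 at -0.692. With Veh 10 left out too, Col15a1 was at -0.0549, Col18a1 at -0.28 and Col9a3 at -0.84. Col15a1 was at -0.0101 without Veh 6 and ISP 18 (chosen after seeing the data) and at -0.0644 without those 2, Veh 10 and ISP 14. For Veh against control, single libraries left out gave -0.0783 to 0.0423 for Col4a2, -0.23 to 0.55 for Col5a1 and -0.14 to 0.24 for Col6a1. Without Veh 6 and Veh 10, Col11a2 was at -0.0669, Col18a1 at -0.39, Col5a1 at -0.29 and Col6a1 at -0.16. For ISP against control, Col8a1 ranged from -0.0879 (without ISP 18) to 1.21, and without ISP 14 and ISP 18 Col1a1 was at -0.31 and Col8a1 at -0.15.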
